A study of Mus musculus with 6 samples.

Results

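The Clca genes encode the calcium-activated chloride channel regulators, a family of 7 protein-coding genes that lie side by side on mouse chromosome 3. Their transcripts were followed here in 2D-MAOs, which are mouse airway epithelial organoids plated as a flat culture. The members Clca1, Clca2, Clca3a1, Clca3a2, Clca3b, Clca4a and Clca4b were found on the arrays through the RefSeq transcripts that the probes were designed on, which gave 9 probes, 3 for Clca3a1 and 1 for each of the other members. They are 7 of the 22910 genes that could be named on the arrays. The family was chosen with the TGF-β1 comparison of these same arrays known, so that its values are a description. Where a call or an interval is given for a member, it is what the fit over all probes returned for that probe, and nothing is inferred from it.

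The cells came from lung airway epithelium of C57BL/6 mice. By the study's methods, cultures were given medium with or without TGF-β1 on day 3. For both groups that medium lacked noggin, an inhibitor of bone morphogenetic proteins, and A83-01, an inhibitor of TGF-β receptors. The non-treated controls had no TGF-β1, and all cultures were collected on day 7. Each group held 3 cultures, described in the study as biological replicates, and each culture was measured on 1 single-colour Agilent array. Between 55.0% and 59.0% of the probes of an array were well above background, the mark that the scanner software gives to a spot clearly brighter than its surroundings. All 15 epithelial genes listed, Epcam and Cdh1 among them, were well above background on all 6 arrays, and Ptprc, the pan-leukocyte marker, was so on none, although 7 of 16 listed leukocyte genes, among them Cd68 and Cd14, were so on all 6. In a culture of mixed cells, fewer cells of a type and less RNA per cell cannot be told apart.

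CLCA proteins are not channels themselves. They are secreted or membrane-attached proteins that cleave themselves through a metalloprotease domain, and they modulate calcium-activated chloride currents. CLCA1, a product of goblet cells, raises the amount of the channel TMEM16A (encoded by Ano1) at the cell surface, and interleukin-13 acting through STAT6 is its best-known inducer in the airway. CLCA2 is known as a p53 target of stratified and basal epithelia. The mouse carries extra copies of the ancestral Clca3 gene, namely Clca3a1, Clca3a2 and Clca3b, and Clca3b was first described, under an earlier name, in smooth muscle.

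Sequence just before the RefSeq transcription start is shown for the 3 Clca3 genes, because Clca3b and Clca3a2 share a near-identical stretch there. RefSeq promoter windows of the assembly GRCm38.p6, from 250 bases before to 50 bases after the start, were given for 5 of the 7 members and not for Clca1 or Clca4a. All sequences are written 5′ to 3′ on the minus strand of chromosome 3, on which the genes are read. Capitals mark the stretch that Clca3b and Clca3a2 share. For Clca3b the 250 bases end at the base before the start (chr3:144849303-144849552).
Clca3b: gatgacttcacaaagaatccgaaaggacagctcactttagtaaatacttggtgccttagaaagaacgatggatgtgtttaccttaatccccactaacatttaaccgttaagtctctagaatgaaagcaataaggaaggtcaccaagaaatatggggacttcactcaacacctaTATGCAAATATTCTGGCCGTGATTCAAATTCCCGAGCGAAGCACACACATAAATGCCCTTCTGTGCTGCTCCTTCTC
For Clca3a2 the part of the shared stretch before the start is given, 69 bases (chr3:144819495-144819563). The RefSeq gene table has Clca3a2 reach further upstream than this start, so that its positions hold for the start of the promoter window only.
Clca3a2: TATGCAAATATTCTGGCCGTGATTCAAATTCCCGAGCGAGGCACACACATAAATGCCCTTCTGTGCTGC
The same 250 bases before the start of Clca3a1 (chr3:144760978-144761227) hold no such stretch.
Clca3a1: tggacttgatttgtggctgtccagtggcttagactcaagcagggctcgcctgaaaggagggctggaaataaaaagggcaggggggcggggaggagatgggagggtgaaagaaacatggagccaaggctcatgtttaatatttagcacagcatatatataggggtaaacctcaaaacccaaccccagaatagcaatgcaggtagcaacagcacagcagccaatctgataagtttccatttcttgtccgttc

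Across both starts, Clca3b and Clca3a2 shared 119 bases of which 118 were identical (99.2%), and 68 of the 69 bases before both starts were the same. Aligned over the rest of the windows as well, 162 of 292 bases were identical (55.5%). The longest identical run was 79 bases, against 7 to 9 bases in every other pair of the 5 windows. Each motif below was searched on both strands. The letters TGANTCA, a loose pattern for AP-1 that allows any base at N, lay in the shared stretch of both genes. They began 58 bases before the start of Clca3b and 50 bases before that of Clca3a2, and 7.81% of all 32851 windows hold them. Both genes read TGATTCA there, with T and not C or G in the middle. The forkhead letters TGTTTAC were found in Clca3b alone among the 5 (3.65% of all windows). CCAAT was found in Clca3a1 and Clca4b (37.4%) and TATAAA in Clca4b (13.6%), whereas neither the SMAD letters CAGAC (49.6%) nor the STAT6 letters, TTC and GAA with 4 bases of any kind between them (6.95%), were found in any of the 5. A match is a description of the letters and not of a bound site.

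Clca3b was the only member whose transcript was lower after TGF-β1 by the threshold used for the whole array. Its normalised log2 signal was 8.49, 8.85 and 8.36 in the 3 controls and 5.97, 6.66 and 6.08 in the 3 TGF-β1-treated cultures. Every treated culture lay below every control. The group means were 8.56 ± 0.25 and 6.24 ± 0.37 (SD, n = 3), a log2 difference of -2.33 with a standard error of 0.22 and a 95% interval from -2.84 to -1.82, which is 5.02-fold lower. The mark of a spot well above background was given to its probe (A_55_P2158176) on each of the 6 arrays, and the spot was 10.1 to 12.0 times as bright as the local background in the controls and 3.01 to 4.32 times in the treated cultures. Clca3b was therefore still measured after TGF-β1. Probe sequences were not analysed here, so whether this probe also binds the transcripts of Clca3a2 was not checked. Its spread within groups, an SD of 0.32, was wider than the median of 0.20 over all probes tested.

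**Figure D1:**
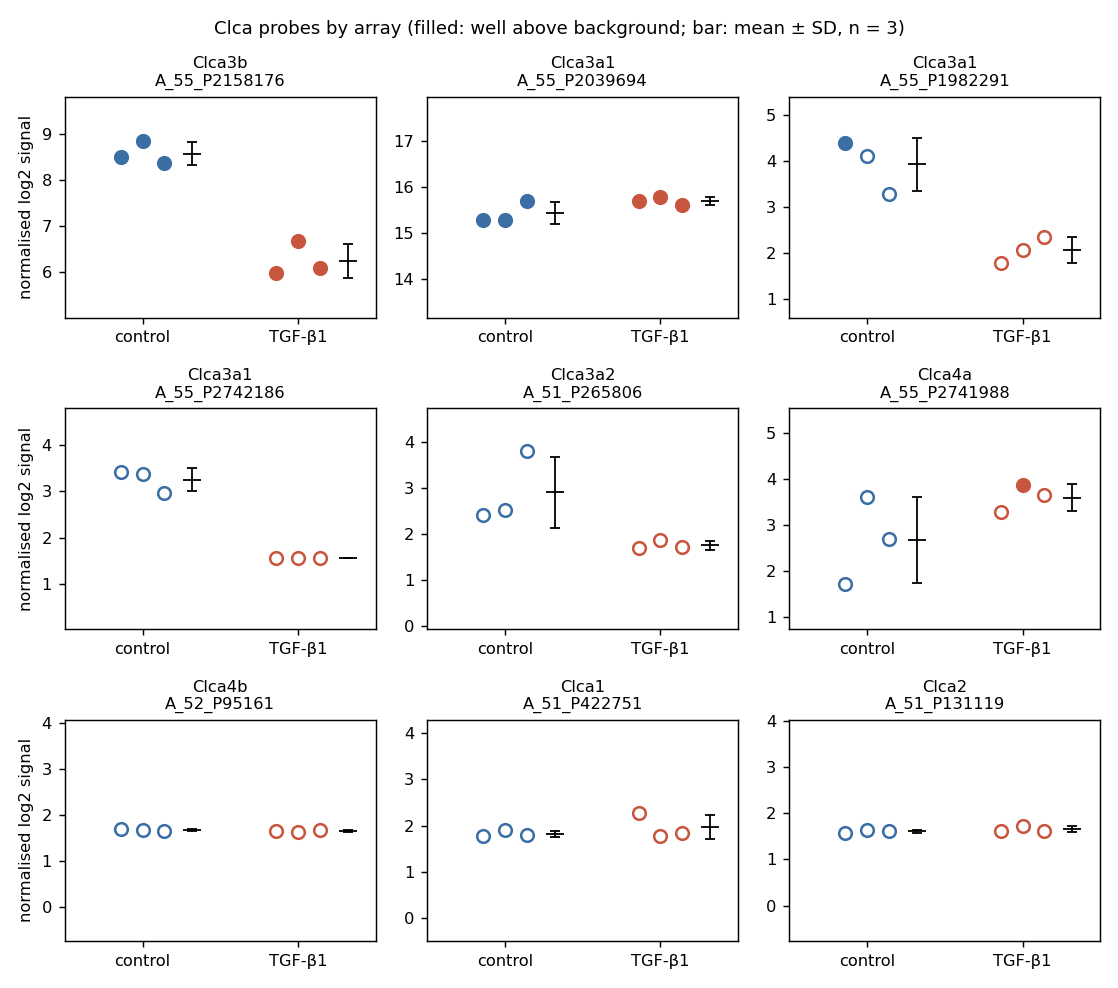
Normalised log2 signal of each of the 9 Clca probes on each array, with controls in blue and TGF-β1-treated cultures in red, filled where the spot was well above background and open where it was not, and with bars for the mean ± SD of 3 arrays. Each panel spans the same number of log2 units, and Clca3b (8.36 to 8.85 against 5.97 to 6.66) is the only probe with 6 filled points whose groups stand apart.

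The Clca3b difference was alike in both parts of the slide. In slide row 1, with 2 arrays per group, it was -2.35, and in row 2, with the replicate 3 arrays, it was -2.28. Leaving out each array in turn gave -2.54 to -2.19, and the probe was called lower each time. Subtracting the background with normexp, which compresses low signals, gave a smaller difference of -1.62. The difference was the same but no longer called when all 56599 probes were tested with no filter on dim ones, and with the methods' t-test, an unpaired test on the same values, after adjustment.

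Clca3a1, the neighbour at the edge of the cluster, had 3 probes that did not run together. The bright probe (A_55_P2039694) read 15.28, 15.28 and 15.70 in the controls and 15.69, 15.77 and 15.59 after TGF-β1. The groups overlapped. The means were 15.42 ± 0.24 and 15.68 ± 0.086 (SD, n = 3), and the difference of 0.26 (SE 0.15, 95% interval -0.093 to 0.62) did not pass the threshold. Its spot was 1399 to 1733 times as bright as the local background over the 6 arrays, and none was saturated. The direction was not settled, since the difference was -0.00063 when arrays were scaled by the 75th percentile in place of quantiles, 0.45 in slide row 1 and -0.10 in slide row 2. The 95% interval lay within 1 log2 unit of 0 on both sides.

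The other Clca3a1 probes were dim. A_55_P1982291 read 4.39, 4.10 and 3.27 in the controls and 1.78, 2.06 and 2.35 after TGF-β1, and was well above background on 1 control array only. The lowest log2 signal at which any probe was well above background was 3.47 to 4.19, depending on the array. The other 5 arrays lay below their own limit, so no bound on a fold change is given. A_55_P2742186 read 3.43, 3.37 and 2.96 against 1.56 on each treated array, the bottom of the scale, and was well above background on no array. In both dim probes all treated values lay below all control values, which was not so in the bright probe. With normexp the differences of the dim probes shrank from -1.86 to -0.20 and from -1.70 to -0.19. Which of the transcripts of Clca3a1 each probe binds was not analysed here, so the disagreement stands as measured.

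Clca3a2, which shares the stretch shown above with Clca3b, did not reach the mark of a spot well above background on a single array. It read 2.41, 2.52 and 3.80 in the controls and 1.69, 1.87 and 1.71 after TGF-β1. The groups did not overlap, but the difference of -1.15 became -0.22 with normexp and -0.71 without the highest control. The weaker mark of a spot significantly above background was given on 3 control arrays and 1 treated array. These log2 differences compare signals near the background and are not fold changes of the transcript.

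Clca4a was the only member with a spot well above background in the treated group alone, on 1 array. Its values were 1.73, 3.61 and 2.71 in the controls and 3.28, 3.87 and 3.65 in the treated cultures, so that the groups overlapped. The difference was 0.92, and it ranged from 0.44 to 1.38 as each array was left out. With normexp it was 0.13. These differences also compare signals near the background and are not fold changes of the transcript.

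Clca1, Clca2 and Clca4b stayed at the bottom of the scale in both groups. Clca1, the goblet cell product, read 1.77, 1.90 and 1.80 in the controls and 2.27, 1.78 and 1.85 after TGF-β1. Clca2 read 1.59, 1.64 and 1.61 against 1.61, 1.73 and 1.62. Clca4b read 1.69, 1.67 and 1.65 against 1.65, 1.63 and 1.67. No spot of these 3 genes was well above background, and all 3 probes had overlapping groups. A signal below the limit gives only an upper bound on the level, and does not show that the transcript was absent.

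**Figure D2:**
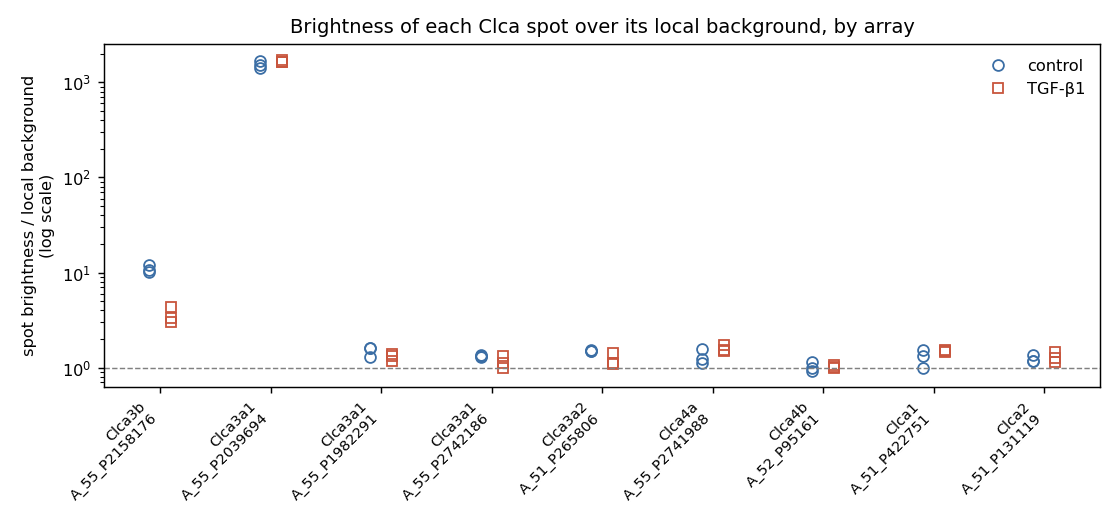
Median brightness of each Clca spot divided by its local background, on a log scale, for 3 control arrays (blue circles) and 3 TGF-β1 arrays (red squares). Clca3b (10.1 to 12.0 against 3.01 to 4.32) and the bright Clca3a1 probe stand clear of the dashed line at 1, where spot and background are equal, and the other 7 probes lie close to it.

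Over the family, 2 of the 9 probes (Clca3b and the bright Clca3a1 probe) were well above background on enough arrays to be tested. Of these, 1 was called lower and 0 were called higher, where a call needed an adjusted p under 0.05 in limma and a 2-fold difference. Over all 32460 probes tested, 0.209% were called lower and 0.983% higher. Of all 9 probes, tested or not, 4 had every treated value below every control value (44.4%) and 0 the reverse, where the shares over all 56599 probes were 14.9% and 9.6%. These shares stand beside the counts as a background only, because the members were picked on this contrast, and 3 of the 4 probes were too dim to be tested.

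**Figure D3:**
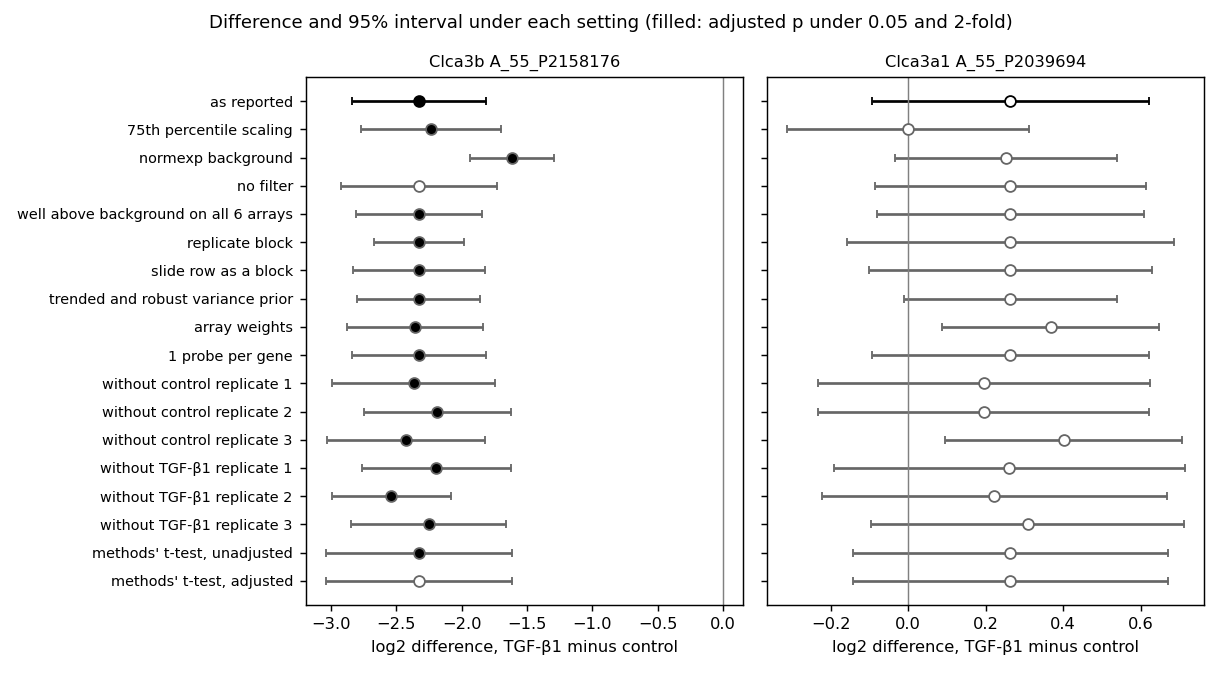
Log2 difference, TGF-β1 minus control, with its 95% interval for the Clca3b probe and the bright Clca3a1 probe under each processing setting and with each array left out, filled where the probe passed both thresholds. Clca3b lies between -2.54 and -1.62 in all of them, and the Clca3a1 probe passes in none.

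The members were also set in their order along the chromosome. The 4 protein-coding genes on each side of the cluster were described with them, and 6 of these 8 were tested. On the side of Clca3a1, Hs2st1 (0.26), Selenof (0.025) and Sh3glb1 (-0.26) had small log2 differences that did not pass the threshold. On the side of Clca2, Odf2l (0.015) and Znhit6 (0.12) did not pass it either. Ccn1, which encodes a secreted matrix protein, was the only flanking gene that rose. It read 13.73, 13.99 and 14.25 in the controls and 15.70, 15.82 and 15.03 after TGF-β1, a difference of 1.53 (SE 0.24, limma adjusted p = 0.0304). That call was lost without control 1 or 2 or TGF-β1 replicate 1 or 2, with differences of 1.38 to 1.77 over the arrays left out. Of all genes tested here from Hs2st1 to Ccn1, Clca3b alone was called lower.

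**Figure D4:**
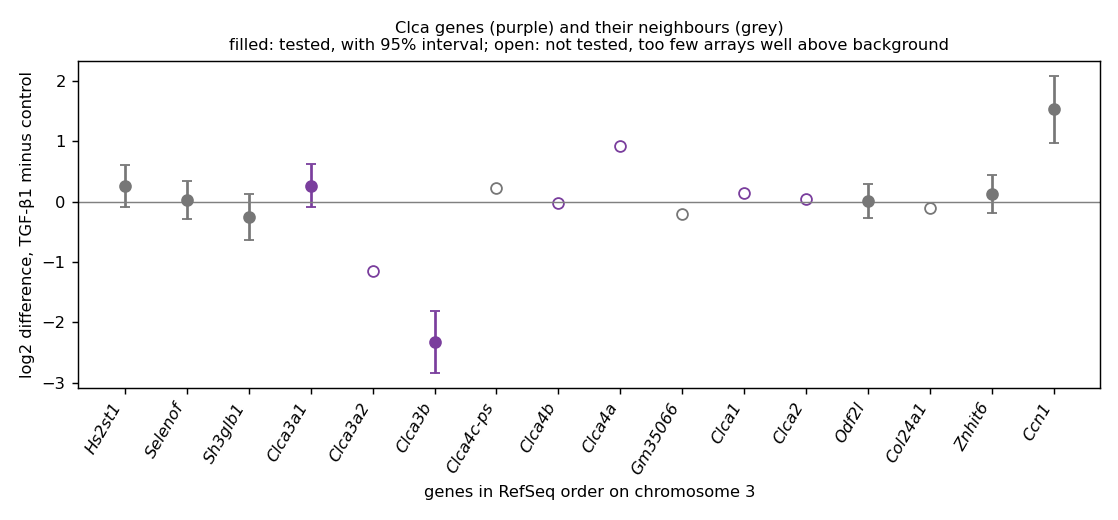
Log2 difference, TGF-β1 minus control, for the Clca genes (purple) and their neighbours (grey) in their order on chromosome 3, with 95% intervals where the gene was tested and open points where too few arrays were well above background. Clca3b at -2.33 and Ccn1 at 1.53 stand apart from the other tested genes, which lie between -0.26 and 0.26.

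The genes most like each member over the 6 arrays were found by the root mean square difference of mean-centred log2 values, among 13516 genes. Nearest to Clca3b were Gsta2, Gm10639 and Gm21944, at distances of 0.28, 0.30 and 0.41 log2 units. Gsta2, which encodes a glutathione S-transferase, read 7.63, 8.52 and 7.84 in the controls and 5.59, 6.22 and 6.17 after TGF-β1. The log2 difference was -2.04 for Gm10639 and -1.98 for Gm21944. Being lower after TGF-β1 was fixed by the choice of these genes for their likeness to Clca3b, so no test is given for them. Nearest to the bright Clca3a1 probe were Atp13a1, Nxf1 and Spns1, at distances of 0.024, 0.034 and 0.034. Likeness over 6 arrays of 2 groups is a description of shared profile.

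The list for calcium-activated chloride conductance, the function that CLCA proteins modulate, also held other chloride channels and transporters, such as Cftr and Clcn2. None of its tested genes passed the threshold in either direction. Of the 22 listed genes on the array 15 were tested, 0 rose and 0 fell, and their median difference was 0.24, beside -0.031 over all 14345 genes tested, of which 1.22% rose and 0.202% fell. Ano1, the channel on which CLCA1 acts, read 14.67, 14.81 and 14.95 in the controls and 16.22, 16.17 and 14.99 after TGF-β1. Its difference of 0.98 (SE 0.32, limma adjusted p = 0.126) was not called, but without TGF-β1 replicate 3 it was 1.38 (adjusted p = 0.00621) and called higher. Slc26a9, an epithelial chloride transporter, showed the same array pattern with 0.97 (adjusted p = 0.284), and 1.66 (0.00977) without TGF-β1 replicate 3. Best2 (-0.68, adjusted p = 0.0958) and Cftr, the cystic fibrosis channel (-0.51, 0.142), lay on the other side of 0 and were not called.

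The goblet cell and mucus genes with which Clca1 is usually found were in part dim. Of 28 on the array, 10 were well above background on no array, among them the gel-forming mucins Muc5ac and Muc5b and the goblet cell factor Foxa3. Muc5ac and Muc5b had the weaker mark, significantly above background, on all 3 control and all 3 treated arrays. Of the 18 tested 0 rose and 0 fell, with a median of 0.020. Spdef, the other goblet cell factor, differed by 0.12 (adjusted p = 0.75), Muc4 by -0.85 (0.0762), Agr2 by -1.07 (0.253) and Bpifb1 by 2.10 (0.108), the last called higher without control 1 (2.89). With normexp the differences shrank to -0.31 for Agr2 and 0.41 for Bpifb1, and neither was called. Of the 11 tested genes of the interleukin-13 and STAT6 response, which includes the inducers and companions of Clca1, 2 rose and 0 fell. Itln1, a secreted lectin, was well above background on no control array and all 3 treated arrays and was at least 8.28-fold higher with quantile normalisation (limma adjusted p = 0.0398), a call that held in 2 of the 6 fits with an array left out, and with normexp its log2 difference was 1.60 and called. Arg1, an arginase, read 4.36, 4.53 and 4.57 against 7.74, 7.21 and 7.41, a difference of 2.97 (adjusted p = 0.00102). With normexp the Arg1 difference was smaller, 1.44, and still called. Socs1 differed by 0.93 (adjusted p = 0.0398), short of 2-fold in the reported fit and called with 75th percentile scaling (1.04) or without TGF-β1 replicate 3 (1.01), and Il13ra2, a decoy receptor, by -1.11 (0.0821).

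Markers of airway cell types gave the setting in which Clca3b was lower. Of 18 club cell genes tested 0 rose and 0 fell (median -0.22). The summed signal of the 20 on the array ran from 291120 to 355967 in the controls and from 219147 to 282445 after TGF-β1. Sums of lists, here and below, add linear signals before normalisation between arrays, and bright probes weigh most in them. Scgb1a1, the main club cell secretory protein, read 10.83, 10.18 and 7.77 against 7.00, 7.57 and 7.42, a difference of -2.27 (SE 0.71, limma adjusted p = 0.118), which without control 3 was -3.18 and called lower. Aldh1a7, an aldehyde dehydrogenase, was also not called (-1.20, adjusted p = 0.0537). Scgb3a2, another secretoglobin, lay on the other side with 8.64, 9.46 and 9.05 against 10.55, 10.08 and 9.66, a difference of 1.05 (adjusted p = 0.0917), which was 1.27 and called higher without TGF-β1 replicate 3. Of 16 basal cell genes tested 1 rose and 0 fell (12 above 0 and 4 below, median 0.74), and their summed signal did not overlap either, with 244258 to 276255 in the controls and 304264 to 487814 after TGF-β1. Krt17, a basal keratin, was the one that rose (1.06, adjusted p = 0.0484), though the call held only without TGF-β1 replicate 3 among the 6 fits with an array left out and was lost with 75th percentile scaling. Col17a1 (2.13, adjusted p = 0.127), Krt14 (1.55, 0.0744), Krt5 (1.37, 0.137), Itgb4, the integrin partner described for CLCA2 (0.79, 0.109), and Trp63, the basal cell factor (0.18, 0.349), were not called, whereas 8 basal cell genes were called higher without TGF-β1 replicate 3, Col17a1, Krt14, Krt5 and Itgb4 among them. Krt15, another basal keratin, differed by -1.06 (adjusted p = 0.305), and by -0.24 without TGF-β1 replicate 3. The part of these cell types in the Clca3b difference was not tested.

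Of 14 ciliated cell genes tested 1 rose, Foxj1 (1.47, limma adjusted p = 0.00314), the ciliated cell factor, and it was called higher in each fit with an array left out. Of the 14, 11 lay above 0 and 3 below (median 0.24). The summed signal of the ciliated list, in which bright probes weigh most, was lower after TGF-β1. It was 66253 to 69064 in the controls and 55149 to 61458 in the treated cultures. The 18 p53 targets, the group to which CLCA2 belongs in human cells, had a median of 0.14 with 0 called, led by Perp (0.77, adjusted p = 0.0826). Of 11 alveolar cell genes tested 0 were called (median -0.0088), and of 15 epithelial genes 0 were called (median 0.086).

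Smooth muscle, the setting in which Clca3b was first described, was covered by a list of 12 genes. Of 6 tested 3 rose and 0 fell (median 1.85), namely Mylk (2.97, limma adjusted p = 0.0262), Cnn1 (2.13, 0.0239) and Smtn (1.70, 0.0219), which encode proteins of the contractile apparatus. Each of these 3 calls held only without TGF-β1 replicate 3 among the 6 fits with an array left out. With normexp all 3 were called, with differences of 1.78 for Mylk, 1.53 for Cnn1 and 1.65 for Smtn. Myh11, Des, Lmod1, Synpo2, Myocd and Hhip were well above background on no array, and Actg2 (-0.18, adjusted p = 0.573) and Acta2 (0.021, 0.957) were not called. Tagln, a smooth muscle actin-binding protein, read 8.64, 8.22 and 8.40 against 11.04, 10.86 and 9.37 (adjusted p = 0.0642), and was called higher with 75th percentile scaling (1.97), with normexp (1.83) and without TGF-β1 replicate 3 (2.53). The summed signal of the list overlapped, with 14134 to 23132 in the controls and 17436 to 24805 after TGF-β1. Of 7 fibroblast genes tested 6 lay above 0 and 1 below (median 1.38), and 5 were called higher without TGF-β1 replicate 3. In the reported fit 2 rose, Col1a1 (at least 2.59-fold higher with quantile normalisation, adjusted p = 0.00898) and Col1a2 (at least 2.38-fold, 0.0164). Col1a1 and Col1a2 were well above background on no control array, so they passed the filter only through the treated arrays. With normexp their log2 differences were 0.60 and 0.43 and neither was called, and the Col1a2 call was also lost without control 1, control 2 or TGF-β1 replicate 2. The markers Col3a1, Lum and Dpt were well above background on no array. Of 5 endothelial genes tested 1 rose, Flt1 (1.72, adjusted p = 0.00335), which with normexp was 0.80 and not called, with Cdh5, Kdr and Tek well above background on none, and of 7 leukocyte genes tested 0 were called.

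**Figure D5:**
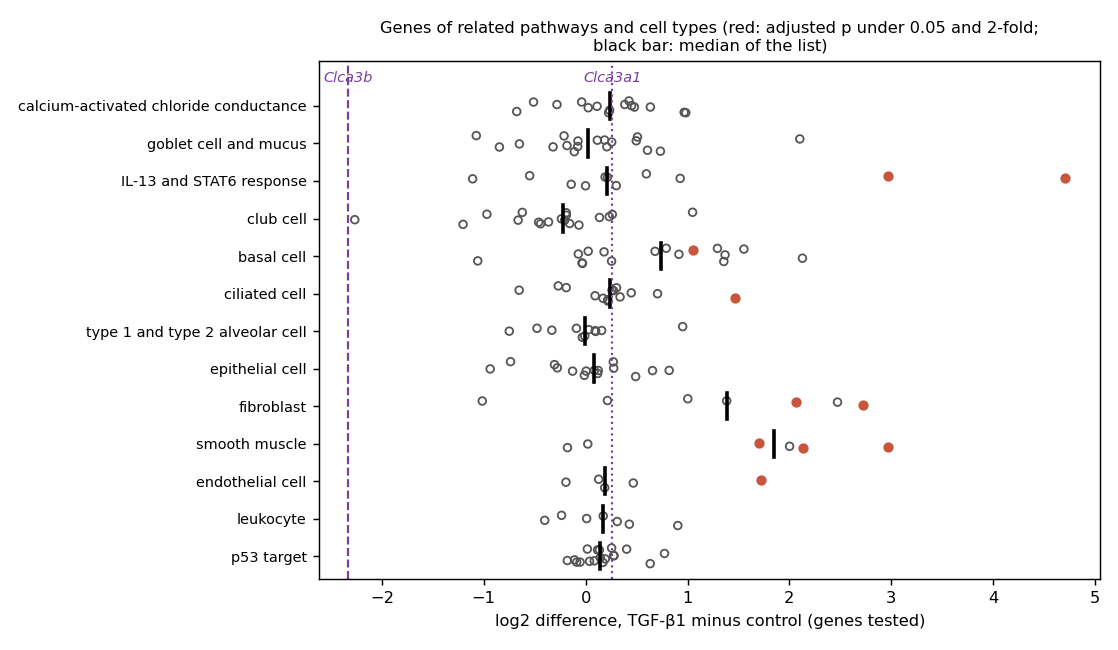
Log2 difference, TGF-β1 minus control, of every tested gene in the listed pathways and cell types, with red points for genes that passed both thresholds and a black bar for the median of each list. The dashed and dotted purple lines mark Clca3b (-2.33) and the bright Clca3a1 probe (0.26), and only Scgb1a1 (-2.27) comes near the Clca3b line.

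Over all 13 lists, 161 genes were tested, of which 10 rose and 0 fell by limma. Of these 10, Itln1, Col1a1 and Col1a2 passed the filter only through the treated arrays. At an unadjusted limma p under 0.05 there were 40 higher and 15 lower, and the methods' t-test with no adjustment gave 14 higher and 2 lower at 2-fold.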

How the data were processed

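RNA of 3 control and 3 TGF-β1-treated cultures was measured on single-colour Agilent mouse arrays. The values deposited by the authors are spot intensities on a linear scale, given by Agilent Feature Extraction 11.0.1.1 after background subtraction, without normalisation between arrays. The study then took log2 values and normalised by quantiles, as was done here. Summed list signals and spot brightness were taken before this step. Control spots and spots marked as outliers were left out (74 to 112 per array), spots of a probe were averaged, and 56599 probes remained. Accessions of 32991 of 35883 RefSeq probes matched a gene symbol of GRCm38.p6. The array design used an older assembly, so probe positions are not given, and gene order and promoter coordinates are those of RefSeq on GRCm38.p6. A probe well above background on at least 3 of 6 arrays was tested with limma 3.58.1 in R 4.3.3, with no covariate and Benjamini-Hochberg adjustment over all 32460 probes. For listed genes the probe with the highest mean was used. All 6 arrays lay on 1 slide with 1 scan time. The number of arrays and the spread between cultures limit the precision. Bounds use the lowest signal well above background per array. Brightness depends on the probe, so no level was compared between probes.

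The members and the 13 gene lists were chosen with earlier results of these data known. The text names genes from all members with every probe, up to 4 called and 3 uncalled genes of each list with the largest difference, 10 genes fixed by name, 4 genes on each side of the cluster and the 3 nearest profiles per member. Epcam, Cdh1, Ptprc, Cd68, Cd14, Krt15, Acta2 and other list members given only as well above background or not were named after their values were seen. Alternatives were 75th percentile scaling, normexp on median brightness with an offset of 50 (mean brightness is not used here), other detection filters, array weights, a trended and robust prior, slide row or replicate number as a block, 1 probe per gene, the methods' unpaired t-test, and each array left out. The scripts were tested on simulated data.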

Additional observations from a re-analysis of the deposited data

How the results depend on the processing

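Under 15 of 17 alternatives 1 Clca probe, Clca3b, was called lower. With no filter on dim probes 0 were, Clca3b keeping its difference of -2.33, and with the methods' t-test adjusted over all probes 0 were, again at -2.33. Without each array in turn the count called lower stayed between 1 and 1, the count called higher between 0 and 0, Clca3b between -2.54 and -2.19, and the bright Clca3a1 probe between 0.20 and 0.40. With 75th percentile scaling the bright Clca3a1 probe turned to -0.00063. Among the listed genes, 10 higher in the reported fit became 4 to 28 and 0 lower became 0 to 1 with an array left out: 28 without TGF-β1 replicate 3, 4 without control 2 or TGF-β1 replicate 2, and 5 without control 1 or TGF-β1 replicate 1. Both 75th percentile scaling and normexp called 1 lower, Aldh1a7 (-1.28 and -1.15). The replicate numbers did not pair the arrays (correlations of same-numbered deviations 0.015, 0.25 and -0.082, with 2 of 6 arrays closest to their own number). With the replicate block Clca3b stayed at -2.33 and called, 5 listed genes were higher, and over all probes calls moved from 319 higher and 68 lower to 123 and 17. Over all probes they were 34 and 9 with no filter, 1248 and 449 with array weights, 67 to 1160 and 10 to 422 with 1 array left out (most without TGF-β1 replicate 3), and 1 and 0 with the adjusted methods' t-test. The cause was not tested.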
